A study of Mus musculus with 4 samples.

Results

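Glycolysis and the response to low oxygen were followed through 35 genes of the mouse colonic epithelium in experimental colitis. The members were chosen by name: every gene whose symbol is on a list of glycolytic enzymes, their regulators, the subunits and sensors of the hypoxia-inducible factor (HIF), and known HIF targets. All 35 symbols were found among the 16015 genes listed, and all 35 passed the filter on low values (a mean of at least 10 normalized counts), which left 13983 genes to test. By role, 6 members are oxygen sensors or HIF subunits, 15 are glycolytic enzymes, 4 take up glucose or regulate glycolysis, and 10 are other HIF targets.

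Bulk RNA-seq libraries came from 2 control mice, labelled WT, and 2 mice labelled *Bmal1* cKO, with 1 library per mouse. *Bmal1* encodes a transcription factor at the core of the circadian clock. Per the study's methods the controls were *Bmal1* fl/fl mice, and the *Bmal1* cKO mice were *Villin-CreERT2; Bmal1* fl/fl, in which the *Villin* promoter drives a tamoxifen-inducible Cre recombinase in the epithelium of the intestine. The mice were C57BL/6 and 2 to 4 months old, Cre was activated by tamoxifen given for 5 days, and both groups drank 3% dextran sulfate sodium (DSS), a polysaccharide that injures the colonic epithelium, for 5 days before plain water until day 7. No library without DSS was analysed here. The cells were crypts scraped from the large intestine after EDTA, a preparation that can carry other cells along.

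Glycolysis splits glucose into pyruvate in the cytosol, and lactate dehydrogenase turns pyruvate into lactate when it is not burnt in mitochondria. When oxygen is plentiful, prolyl hydroxylases mark the HIF alpha subunits for VHL, which sends them to degradation. When oxygen is scarce the subunits persist, pair with ARNT and raise the transcription of glycolytic enzymes, of the angiogenic factor VEGFA and of many other genes. The colonic epithelium borders an almost oxygen-free lumen, and HIF activity is part of its normal physiology and of its response to colitis.

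The deposited values are normalized counts, that is, reads on a gene divided by 1 size factor per library. Depth ran from 10312791 to 14156639 reads on the listed genes. The targeted gene, listed as *Arntl*, had 358 and 342 normalized counts in the controls and 341 and 289 in the mice labelled *Bmal1* cKO. Its log2 fold change was -0.16 (standard error 0.14, limma adjusted p = 0.389) and -0.45 with the correction described below (limma adjusted p = 0.0611). The study reports that immunoblot and immunohistochemistry showed BMAL1 lost from the intestinal epithelium of its knockout mice. Every direction below is that of the libraries as labelled. Fold changes were tied to GC content, with a median log2 fold change of 1.13 in the decile of genes with the lowest GC content and -1.35 in the decile with the highest. Between the mice of 1 group the correlation of the difference with GC content was 0.01 for the controls and -0.12 for *Bmal1* cKO, against -0.61 between the groups (Spearman, across 13975 genes, which are not independent). The fold changes of the members are therefore also given after every library was adjusted by loess for the GC content and exon length of the genes, called the GC correction here. Epithelial markers summed to 161700 and 192243 normalized counts in the controls and 156958 and 168240 in *Bmal1* cKO. Of these 12 markers, 4 (33.3%) were lower and 2 (16.7%) were higher, against 27.7% and 29.0% of all tested genes. Markers of other cells were lower in *Bmal1* cKO for 11 of 12 leukocyte genes, 8 of 8 tested neutrophil genes, 5 of 5 erythroid genes, 9 of 10 endothelial genes and 10 of 12 genes of fibroblasts, pericytes and smooth muscle. In bulk libraries, fewer cells of a type and less RNA per cell cannot be told apart.

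Of the 35 members, 13 (37.1%) were lower and 5 (14.3%) were higher in *Bmal1* cKO, where 27.7% of all tested genes were lower and 29.0% were higher (limma on log2 of the normalized count plus 1, Benjamini-Hochberg adjusted p under 0.05). The median log2 fold change was -0.37 over the members and -0.04 over all tested genes. After the GC correction 6 members (17.1%) were lower and 2 (5.71%) higher, against 17.8% and 17.5% of all tested genes, and the median of the members was 0.14. The sign of the members' median thus depended on this correction. The genes whose call held in each of the 12 fits that kept all 4 libraries were *Hk2*, *Pfkfb3*, *Vegfa* and *Ndrg1*, all lower, and *Pdk1*, higher. Of the 18 members called as deposited, 8 kept the call in all 4 fits that left out 1 mouse, namely *Hk1*, *Hk2*, *Aldoa*, *Egln2*, *Pfkfb3*, *Pdk1*, *Bnip3l* and *Ddit4*. The call held in 3 of those fits for *Hif1a*, in 2 for *Vegfa* and *Pfkp*, in 1 for *Gapdh*, *Ndrg1*, *Egln1* and *Adm*, and in 0 for *Pkm*, *P4ha2* and *Vhl*.

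**Figure D1:**
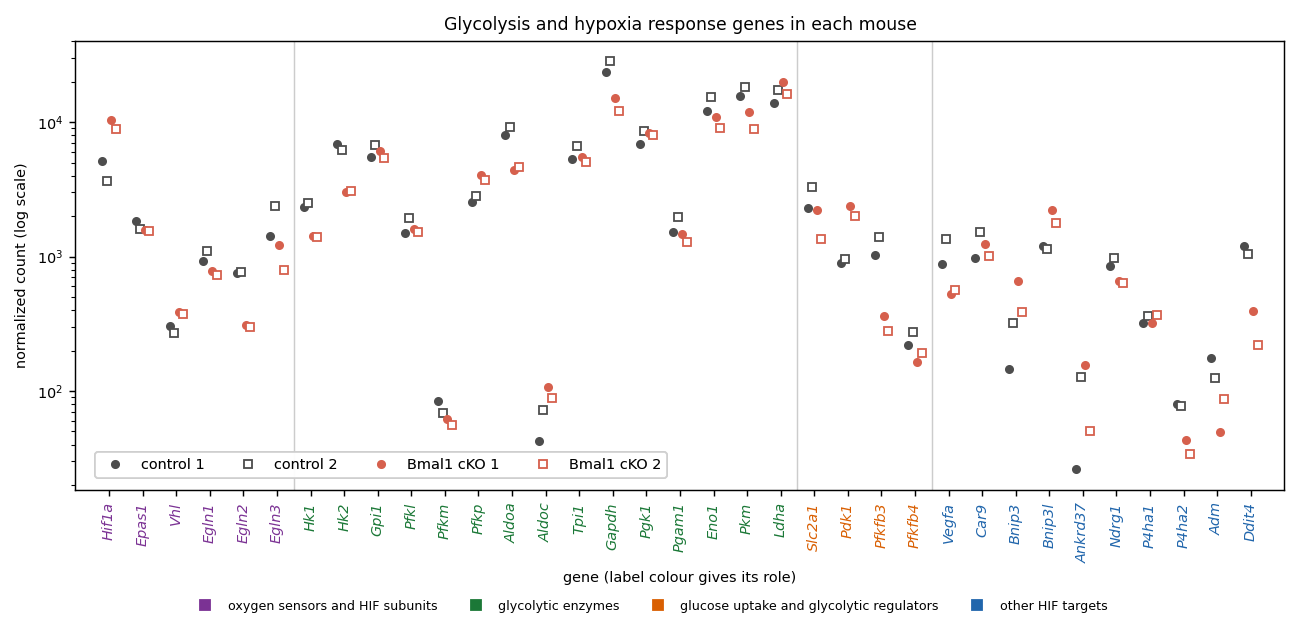
Normalized counts (log scale) of the 35 members in each of the 4 mice, grouped by role. *Gapdh* runs from 12156 to 28420, and *Hk2*, *Pfkfb3*, *Egln2* and *Ddit4* show both *Bmal1* cKO mice well below both controls, whereas *Hif1a* and *Pdk1* show them above.

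**Figure D2:**
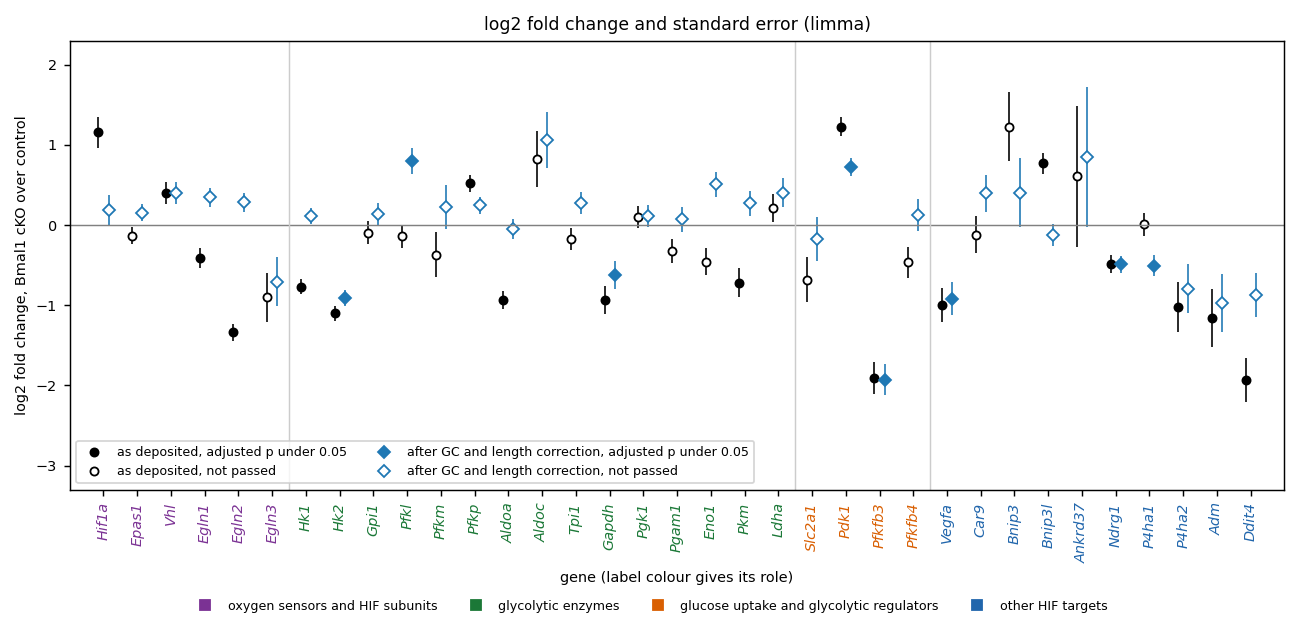
log2 fold changes of *Bmal1* cKO over control with standard errors from limma (n = 2 mice per group), as deposited (black circles) and after the GC correction (blue diamonds), filled where the adjusted p was under 0.05. *Hk2*, *Gapdh*, *Pfkfb3*, *Vegfa*, *Ndrg1* and *Pdk1* are filled in both, and *Egln2* moves from -1.34 to 0.28.

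The promoters of the members were read from RefSeq (build GRCm38.p6), which gave 47 windows of 300 bases for 32 of the 35 genes and no entry for *Epas1*, *Bnip3l* and *Ndrg1*. Each window runs along the gene's strand from upstream of a transcription start to just past it. HIF binds DNA at the core ACGTG or GCGTG, and BMAL1 with its partner CLOCK binds the E-box CACGTG, which itself contains ACGTG, so 1 stretch can count for both. Searched on both strands, ACGTG or GCGTG was in 38 of the 47 member windows (80.9%) and in 43.8% of all 32817 promoter windows of this length. ACGTG alone was in 26 (55.3%, against 19.6%), GCGTG in 28 (59.6%, against 32.4%) and the E-box in 6 (12.8%, against 7.15%), which belong to 6 genes. Such a match is a description of the letters and not a binding site. Both cores contain CG, and the member windows were not matched to the other windows for GC content. Windows of 1 gene can also overlap, so a stretch can be counted more than once. The part of base composition in these shares was not tested. In the sequences printed here, in lower case and 5′ to 3′, capitals mark ACGTG or GCGTG on either strand.

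Of the sensors and HIF subunits, *Hif1a* and *Vhl* were higher and *Egln1* and *Egln2* were lower as deposited. After the GC correction the adjusted p of the 6 ranged from 0.0734 to 0.477. *Hif1a*, the oxygen-regulated subunit of HIF-1 (ENSMUSG00000021109, chr12:73901375-73947530, GRCm38), had 5128 and 3622 normalized counts in the controls and 10409 and 8882 in *Bmal1* cKO. Both *Bmal1* cKO mice lay above both controls, a log2 fold change of 1.16 (standard error 0.19, limma adjusted p = 0.00489). With 41.3% GC it is the member with the lowest GC content, and after the correction its log2 fold change was 0.19 (adjusted p = 0.477). Without control 1 or 2 or *Bmal1* cKO 1 or 2 in turn, its adjusted p ranged from 0.0150 to 0.0618. Its RNA level says nothing about the protein, which oxygen controls through degradation. The *Hif1a* window is shown because it holds an E-box and a further ACGTG:
*Hif1a*, chr12:73907617-73907916, plus strand: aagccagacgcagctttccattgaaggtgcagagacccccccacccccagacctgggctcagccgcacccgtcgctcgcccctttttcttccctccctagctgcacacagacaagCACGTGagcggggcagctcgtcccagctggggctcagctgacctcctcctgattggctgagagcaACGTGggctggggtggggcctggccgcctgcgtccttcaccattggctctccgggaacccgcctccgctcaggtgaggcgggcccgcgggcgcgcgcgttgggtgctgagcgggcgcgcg

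*Epas1*, which encodes HIF-2 alpha, had 1827 and 1592 normalized counts in the controls and 1574 and 1542 in *Bmal1* cKO, a log2 fold change of -0.13 that did not pass the test (limma adjusted p = 0.318), and 0.15 after the correction. *Vhl*, the recognition subunit of the ubiquitin ligase that removes HIF alpha, had 303 and 271 against 385 and 373, higher by a log2 fold change of 0.40 (standard error 0.13, limma adjusted p = 0.0482) and again 0.40 after the correction (adjusted p = 0.0734). That call sat at the threshold, and it held in 4 of the 12 fits with all libraries. The 3 prolyl hydroxylases all pointed down as deposited. *Egln2* had 760 and 772 normalized counts against 309 and 297, a 2.53-fold lower mean with mice of 1 group nearly equal (766 ± 8.0 and 303 ± 7.93, SD, n = 2), and a log2 fold change of -1.34 (limma adjusted p = 0.000663). It has the highest GC content of the members, 62.2%, and its log2 fold change after the correction was 0.28 (adjusted p = 0.105). *Egln1*, the main oxygen sensor of most cells, had 920 and 1096 against 780 and 731, and its log2 fold change likewise turned from -0.41 (limma adjusted p = 0.0344) to 0.34 (adjusted p = 0.0765). *Egln3*, itself a HIF target, had 1419 and 2362 against 1222 and 788, which did not overlap but did not pass the test either way (log2 fold change -0.90, limma adjusted p = 0.0516, and -0.70, adjusted p = 0.126).

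The enzymes of glycolysis pointed down in 11 of 15 cases as deposited, of which *Hk1*, *Hk2*, *Aldoa*, *Gapdh* and *Pkm* passed the test, and *Pfkp* alone was higher. These 5 of 15 lower (33.3%) stand beside 27.7% of all tested genes, of which 7155 of 13983 pointed down. The median log2 fold change of the enzymes was -0.32. After the correction 12 of the 15 pointed up, as did 6832 of all 13983 tested genes, and the median was 0.23, with *Hk2* and *Gapdh* lower (13.3%, against 17.8% of all tested genes) and *Pfkl* higher. Summed over the 15 enzymes per kilobase of exon, the level was 26481 and 31959 in the controls and 24196 and 21061 in *Bmal1* cKO.

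*Hk2*, the inducible hexokinase that traps glucose in the cell as glucose 6-phosphate (ENSMUSG00000000628, chr6:82725025-82774454), had 6845 and 6238 normalized counts in the controls and 2999 and 3095 in *Bmal1* cKO. The means, 6542 ± 429 and 3047 ± 67.9 (SD, n = 2), differed 2.15-fold, at a log2 fold change of -1.10 (standard error 0.10, limma adjusted p = 0.000773) and -0.90 after the correction (adjusted p = 0.00439). It is the 1 enzyme called lower in all 12 fits with every library and in all 4 fits without a mouse. Its window holds ACGTG on the opposite strand at both marked places:
*Hk2*, chr6:82774405-82774704, minus strand: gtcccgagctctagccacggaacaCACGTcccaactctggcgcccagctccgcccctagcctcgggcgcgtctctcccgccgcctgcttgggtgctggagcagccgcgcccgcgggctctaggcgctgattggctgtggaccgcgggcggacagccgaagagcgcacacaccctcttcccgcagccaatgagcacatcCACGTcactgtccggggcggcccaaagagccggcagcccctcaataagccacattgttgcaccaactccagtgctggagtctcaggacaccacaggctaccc

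*Hk1*, the constitutive hexokinase, had 2318 and 2512 normalized counts in the controls and 1434 and 1398 in *Bmal1* cKO, with a log2 fold change of -0.77 (limma adjusted p = 0.00168). After the correction it was 0.11 (adjusted p = 0.429), so the call of *Hk1* and that of *Hk2* parted there. *Gapdh*, which carries out the NADH-yielding step of glycolysis and is widely used as a reference gene (ENSMUSG00000057666, chr6:125161715-125166467), had 23594 and 28420 normalized counts against 15131 and 12156. The 1.91-fold lower mean gave a log2 fold change of -0.93 (standard error 0.17, limma adjusted p = 0.00761) and -0.62 after the correction (adjusted p = 0.0423). Leaving out 1 mouse moved the adjusted p of *Gapdh* to between 0.0336 and 0.107, and it was called in 1 of those 4 fits. The *Gapdh* window is shown because the gene is so often a reference:
*Gapdh*, chr6:125165724-125166023, minus strand: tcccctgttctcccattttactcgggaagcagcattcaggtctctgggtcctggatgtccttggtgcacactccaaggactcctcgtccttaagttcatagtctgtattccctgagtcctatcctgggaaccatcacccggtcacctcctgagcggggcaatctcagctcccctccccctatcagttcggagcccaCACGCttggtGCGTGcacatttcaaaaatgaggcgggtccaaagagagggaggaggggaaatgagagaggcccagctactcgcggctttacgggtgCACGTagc

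*Aldoa*, the aldolase of most tissues, had 8049 and 9242 normalized counts in the controls and 4410 and 4644 in *Bmal1* cKO, a log2 fold change of -0.93 (limma adjusted p = 0.00177) that became -0.05 after the correction (adjusted p = 0.771). The symbol is listed a second time under another identifier, ENSMUSG00000114515, with 21.1 and 17.8 against 13.4 and 1.35 normalized counts, and that row was left out of the counts. *Pkm*, the pyruvate kinase of the last energy-yielding step, had 15591 and 18363 against 11818 and 8948, and its log2 fold change went from -0.72 (limma adjusted p = 0.0196) to 0.27 (adjusted p = 0.233). Without 1 mouse the adjusted p of *Pkm* was 0.0518 to 0.157, so the call was lost in all 4 of those fits. *Eno1* had 12183 and 15252 against 10876 and 9075, which did not overlap, and its log2 fold change of -0.46 (limma adjusted p = 0.0608) became 0.51 (adjusted p = 0.0569). These 4 enzymes, *Hk1*, *Aldoa*, *Pkm* and *Eno1*, have between 56.4% and 57.7% GC in their longest transcript, above the median of 49.5% over all genes.

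The groups did not overlap in 27 of the 35 members, where they did not overlap in 82.1% of all tested genes. Of the 15 enzymes, 5 overlapped: *Gpi1*, *Pfkl*, *Tpi1*, *Pgk1* and *Ldha*. *Gpi1* had 5512 and 6772 normalized counts against 6105 and 5377, *Tpi1* had 5307 and 6623 against 5459 and 5039, and *Pgk1*, the first enzyme to return ATP, had 6830 and 8609 against 8357 and 8086. These 3 missed the threshold, with limma adjusted p of 0.591, 0.308 and 0.564, and log2 fold changes of 0.14, 0.27 and 0.11 after the GC correction. *Pgam1* had 1515 and 1954 against 1478 and 1281, which did not overlap but missed the threshold too (log2 fold change -0.32, limma adjusted p = 0.124, and 0.07 after the GC correction). *Ldha*, which makes lactate and is a textbook HIF-1 target (ENSMUSG00000063229, chr7:46841475-46855627), had 13783 and 17335 in the controls and 19770 and 16240 in *Bmal1* cKO. Those values overlapped, and the log2 fold change of 0.21 (standard error 0.18, limma adjusted p = 0.339) did not pass the test as deposited or, at 0.41, after the correction (adjusted p = 0.129). Its upstream window holds the E-box 2 times and, counted by strand, ACGTG 5 times, since an E-box reads ACGTG on both strands, and is shown because no other member window holds as many:
*Ldha*, chr7:46845554-46845853, plus strand: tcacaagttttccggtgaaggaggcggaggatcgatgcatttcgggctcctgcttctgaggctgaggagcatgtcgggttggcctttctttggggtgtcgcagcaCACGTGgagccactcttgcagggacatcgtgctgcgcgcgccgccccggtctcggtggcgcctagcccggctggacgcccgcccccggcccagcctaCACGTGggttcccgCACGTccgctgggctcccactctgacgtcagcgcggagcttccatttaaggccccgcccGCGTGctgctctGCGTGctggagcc

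**Figure D3:**
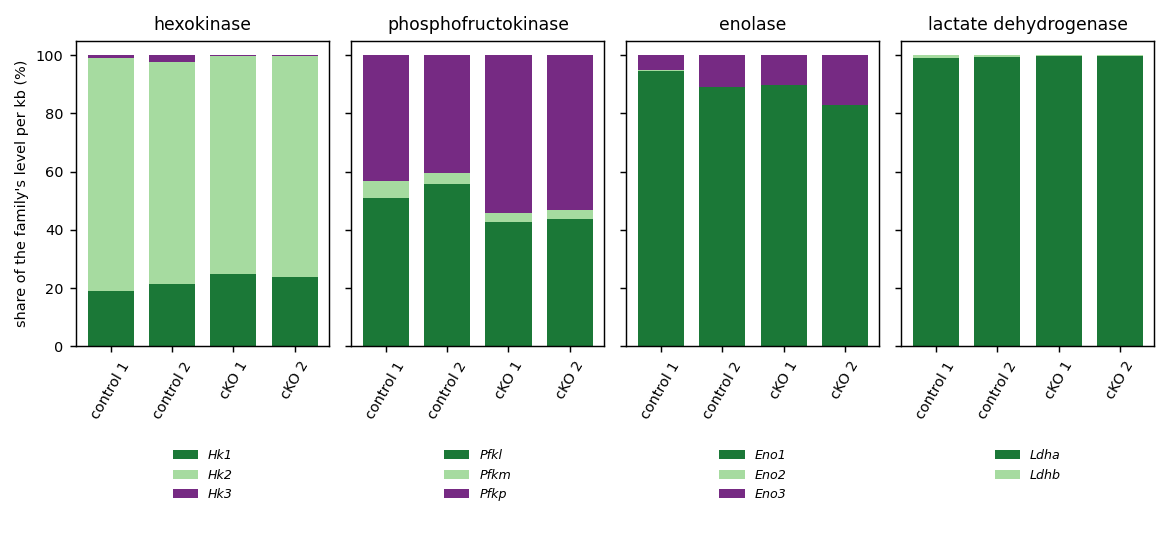
Share of each isozyme in its family's level per kilobase of exon (%), in each of the 4 mice. *Pfkp* takes 43.2% and 40.4% of phosphofructokinase in the controls and 54.1% and 53.0% in *Bmal1* cKO, but these shares carry no GC correction, under which *Pfkl* gains more (0.80) than *Pfkp* (0.25) on the log2 scale.

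Where the same step has several isozymes, their shares were compared per kilobase of exon, as a description. Hexokinase was mostly *Hk2*, with 80.2% and 76.2% in the controls and 74.6% and 75.7% in *Bmal1* cKO as deposited. After the GC correction the log2 fold changes of *Hk2* (-0.90) and *Hk1* (0.11) differed, so these shares do not hold under it. *Hk3*, a hexokinase of blood cells, held 0.850% and 2.299% in the controls and 0.415% and 0.322% in *Bmal1* cKO. Phosphofructokinase, the committed step, was split between the liver form *Pfkl* and the platelet form *Pfkp*. *Pfkl* took 51.1% and 55.7% in the controls and 42.6% and 43.8% in *Bmal1* cKO, and *Pfkp* moved the other way. These shares are not corrected for GC content, and the corrected fold changes of the pair turn the direction of this shift. *Pfkp* had 2543 and 2838 normalized counts against 4058 and 3681, a log2 fold change of 0.53 (standard error 0.11, limma adjusted p = 0.00973) and 0.25 after the correction (adjusted p = 0.132). *Pfkl* had 1495 and 1948 against 1591 and 1513, -0.14 as deposited (limma adjusted p = 0.444) and 0.80 after the correction (adjusted p = 0.0166). The muscle form *Pfkm* was scarce, with 83.6 and 68.6 against 61.7 and 55.4 (log2 fold change -0.37, limma adjusted p = 0.30, and 0.23 after the correction). *Aldoc*, the aldolase of the brain, had 42.2 and 72 normalized counts against 108 and 89.2, which did not overlap and did not pass the test (log2 fold change 0.82, limma adjusted p = 0.0952, and 1.07 after the correction, adjusted p = 0.0633). Lactate dehydrogenase was at least 99.0% *Ldha* in every mouse. Several of these enzymes have near-identical pseudogenes, and how the authors' counter treated reads shared with them is not given in the sources used here.

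Beside *Hk2*, the members called in every fit were both regulators of glycolysis, 1 in each direction. *Pfkfb3* makes fructose 2,6-bisphosphate, the strongest activator of phosphofructokinase, and is a HIF target (ENSMUSG00000026773, chr2:11471433-11554077). It had 1026 and 1397 normalized counts in the controls and 361 and 281 in *Bmal1* cKO, so the highest *Bmal1* cKO mouse was far below the lowest control. Its mean was 3.77-fold lower, at a log2 fold change of -1.91 (standard error 0.20, limma adjusted p = 0.00118), and the correction left it at -1.93 (adjusted p = 0.00372). Its GC content of 50.2% is close to the median of all genes. Over the 12 fits with all libraries its log2 fold change ranged from -2.13 to -1.89, and without 1 mouse from -2.13 to -1.68. Both of its RefSeq windows are shown, since the downstream one holds an E-box and the upstream one does not:
*Pfkfb3*, chr2:11502041-11502340, minus strand: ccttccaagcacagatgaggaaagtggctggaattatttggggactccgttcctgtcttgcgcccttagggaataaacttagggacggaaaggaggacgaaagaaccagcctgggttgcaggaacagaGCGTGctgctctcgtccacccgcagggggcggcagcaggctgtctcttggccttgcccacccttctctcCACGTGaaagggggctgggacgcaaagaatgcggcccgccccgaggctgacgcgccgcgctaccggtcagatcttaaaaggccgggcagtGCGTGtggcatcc
*Pfkfb3*, chr2:11553880-11554179, minus strand: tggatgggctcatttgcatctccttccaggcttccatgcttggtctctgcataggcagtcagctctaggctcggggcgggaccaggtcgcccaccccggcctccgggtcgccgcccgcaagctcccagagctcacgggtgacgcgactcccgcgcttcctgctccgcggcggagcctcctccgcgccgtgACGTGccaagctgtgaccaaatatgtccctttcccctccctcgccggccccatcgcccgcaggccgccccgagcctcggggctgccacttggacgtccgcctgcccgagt

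*Pdk1*, a kinase that shuts off pyruvate dehydrogenase and so limits the conversion of pyruvate to acetyl-CoA in mitochondria (ENSMUSG00000006494, chr2:71873224-71903858), had 901 and 961 normalized counts in the controls and 2366 and 2013 in *Bmal1* cKO. Both *Bmal1* cKO mice were above both controls, the mean was 2.35-fold higher, and the log2 fold change was 1.23 (standard error 0.11, limma adjusted p = 0.000864). After the correction it was 0.72 (adjusted p = 0.00861). Among the 35 members it was the only one called higher in all 12 fits with every library and in all 4 fits without a mouse. Its window at the gene's start holds GCGTG on the plus strand at both marked places:
*Pdk1*, chr2:71872974-71873273, plus strand: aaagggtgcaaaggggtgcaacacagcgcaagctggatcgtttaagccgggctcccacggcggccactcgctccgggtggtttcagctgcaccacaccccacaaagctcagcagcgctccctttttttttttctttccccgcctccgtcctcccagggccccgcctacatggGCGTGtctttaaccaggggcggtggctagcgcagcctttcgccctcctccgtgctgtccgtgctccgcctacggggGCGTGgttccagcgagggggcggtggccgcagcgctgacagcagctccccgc

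*Slc2a1*, the glucose transporter GLUT1, had 2302 and 3314 normalized counts in the controls and 2206 and 1344 in *Bmal1* cKO. The groups did not overlap, but *Bmal1* cKO 1 lay just under control 1, and the log2 fold change of -0.68 did not pass the test (standard error 0.28, limma adjusted p = 0.0885). After the correction it was -0.17 (adjusted p = 0.653). *Pfkfb4*, a relative of *Pfkfb3*, had 221 and 273 against 164 and 193, which did not pass the test as deposited (log2 fold change -0.46, limma adjusted p = 0.0866) and pointed the other way after the correction (0.13, adjusted p = 0.648).

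Of the 10 other HIF targets, *Vegfa*, *Ndrg1*, *P4ha2*, *Adm* and *Ddit4* were lower (50%, against 27.7% of all tested genes) and *Bnip3l* was higher as deposited, with a median log2 fold change of -0.30. After the correction 7 of the 10 pointed down, as did 7151 of all 13983 tested genes, and the median was -0.50, with *Vegfa*, *Ndrg1* and *P4ha1* lower (30%, against 17.8% of all tested genes). *Vegfa*, the main growth factor of blood vessels (ENSMUSG00000023951, chr17:46016993-46032369), had 876 and 1354 normalized counts in the controls and 531 and 560 in *Bmal1* cKO. Its mean was 2.04-fold lower, at a log2 fold change of -0.997 (standard error 0.21, limma adjusted p = 0.0118) and -0.92 after the correction (adjusted p = 0.0235). The control mice differed more from each other than the *Bmal1* cKO mice did (1115 ± 338 and 545 ± 20.4, SD, n = 2). The *Vegfa* window at the gene's start holds neither core and is shown for contrast, while a further RefSeq window inside the gene holds 1 of each:
*Vegfa*, chr17:46032328-46032627, minus strand: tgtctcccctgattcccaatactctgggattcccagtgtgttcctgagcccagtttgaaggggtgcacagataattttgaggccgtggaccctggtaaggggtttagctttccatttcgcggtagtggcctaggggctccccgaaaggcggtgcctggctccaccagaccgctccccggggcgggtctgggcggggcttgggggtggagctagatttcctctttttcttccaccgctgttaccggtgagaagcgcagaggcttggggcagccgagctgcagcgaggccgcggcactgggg

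*Ddit4*, an inhibitor of mTORC1 that stress and low oxygen induce, had 1198 and 1048 normalized counts in the controls and 391 and 220 in *Bmal1* cKO. As deposited it had the largest log2 fold change of the members, -1.93 (standard error 0.28, limma adjusted p = 0.00304), close to -1.91 for *Pfkfb3*. With 57.9% GC it came to -0.87 after the correction, just short of the threshold (limma adjusted p = 0.0557), where *Pfkfb3* was at -1.93. *Ddit4* was called lower in the other 11 of the 12 fits with all libraries. *Adm*, the vasodilator peptide adrenomedullin, had 176 and 125 against 49.4 and 87.9 (log2 fold change -1.16, limma adjusted p = 0.0397, and -0.97 after the correction, adjusted p = 0.0849). *Ndrg1*, a stress-induced gene of differentiating epithelium, had 851 and 975 against 662 and 637, at a log2 fold change of -0.49 (standard error 0.11, limma adjusted p = 0.0151) that was again -0.49 after the correction (adjusted p = 0.0220).

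*P4ha1* and *P4ha2* encode the catalytic subunits of the enzyme that hydroxylates proline in collagen. *P4ha2* had 80.3 and 77.1 normalized counts in the controls and 43.2 and 33.8 in *Bmal1* cKO (log2 fold change -1.02, limma adjusted p = 0.0355, and -0.80 after the correction, adjusted p = 0.0939). That call held in 6 of the 12 fits with all libraries and in 0 of the 4 without a mouse. *P4ha1* was level as deposited, with 322 and 362 against 323 and 366, and its log2 fold change was -0.51 after the correction (limma adjusted p = 0.0368). *Bnip3* and *Bnip3l* encode receptors that send mitochondria to autophagy. *Bnip3l* had 1193 and 1138 against 2216 and 1784 (log2 fold change 0.77, limma adjusted p = 0.00505), and with 41.9% GC its log2 fold change after the correction was -0.12 (adjusted p = 0.497). *Bnip3* had 145 and 319 against 659 and 388, a log2 fold change of 1.23 with a standard error of 0.43 (limma adjusted p = 0.0568), and 0.41 after the correction (adjusted p = 0.483) with 41.6% GC. *Car9*, the carbonic anhydrase that is a standard marker of low oxygen, overlapped between the groups with 977 and 1511 against 1240 and 1010 (log2 fold change -0.12, limma adjusted p = 0.676, and 0.39 after the correction). *Ankrd37* varied most within groups, with 26.2 and 127 in the controls and 157 and 50.01 in *Bmal1* cKO (log2 fold change 0.61, standard error 0.88, limma adjusted p = 0.576, and 0.85 after the correction).

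Of the other HIF targets, several are also made by stroma, endothelium or leukocytes. The summed markers of fibroblasts, pericytes and smooth muscle were 15439 and 3714 normalized counts in the controls and 490 and 537 in *Bmal1* cKO, and those of endothelium 3003 and 739 against 86.4 and 120, with *Emcn* at 0 in both *Bmal1* cKO mice. Leukocyte markers summed to 10342 and 5625 against 822 and 1223, and neutrophil markers to 9146 and 26995 against 3552 and 2855, with *Ngp* and *Camp* at 0 in both *Bmal1* cKO mice. Without *Ly6g*, which held most of the *Bmal1* cKO sums, the neutrophil markers were 3346 and 19521 against 634 and 305. Erythroid markers summed to 1348 and 2033 against 19.5 and 17.6, with *Hba-a2* at 0 in both. The defining epithelial gene *Epcam* overlapped between the groups, with 17455 and 21772 against 18588 and 20320, but *Krt18*, *Cdx1*, *Cdx2* and *Lgals4* were lower and *Krt20* and *Tspan8* higher as deposited. After the GC correction 5 of the 12 epithelial markers (41.7%) were higher, *Cdx1* among them, against 17.5% of all tested genes. *Ptprc* (CD45) had 1259 and 745 against 315 and 414 and *Col1a1* 1719 and 408 against 34.97 and 28.4. *S100a8*, *Hba-a1* and *Pecam1* were likewise below both controls in both *Bmal1* cKO mice. Between the controls, the summed stromal, endothelial and leukocyte markers were higher in control 1. The summed neutrophil, erythroid and epithelial markers were higher in control 2. Of the 35 members, 26 were higher in control 2, *Gapdh*, *Vegfa* and *Pfkfb3* among them. The other 9, with *Hk2*, *Ddit4* and *Adm*, were higher in control 1. The part of the cells behind these markers in the lower levels of *Hk2*, *Gapdh*, *Pfkfb3*, *Vegfa* and the other members was not tested.

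Set beside each other, the glycolytic enzymes and the other HIF targets had like medians as deposited, -0.32 and -0.30, with 5 of 15 (33.3%) and 5 of 10 (50%) lower, against 27.7% of all tested genes. The correction moved them to opposite signs, 0.23 and -0.50, with 2 of 15 (13.3%) and 3 of 10 (30%) lower, against 17.8% of all tested genes. As deposited, leaving out 1 mouse put the median between -0.42 and -0.14 for the enzymes and between -0.55 and -0.15 for the targets. Without control 1 the medians were -0.34 and -0.55. The 15 enzymes lie between 48.0% and 57.7% GC with a median of 52.8%, and the 10 targets between 41.6% and 57.9% with a median of 50.8%. The 2 lists were not tested against each other, and their members share the same 4 mice.

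**Figure D4:**
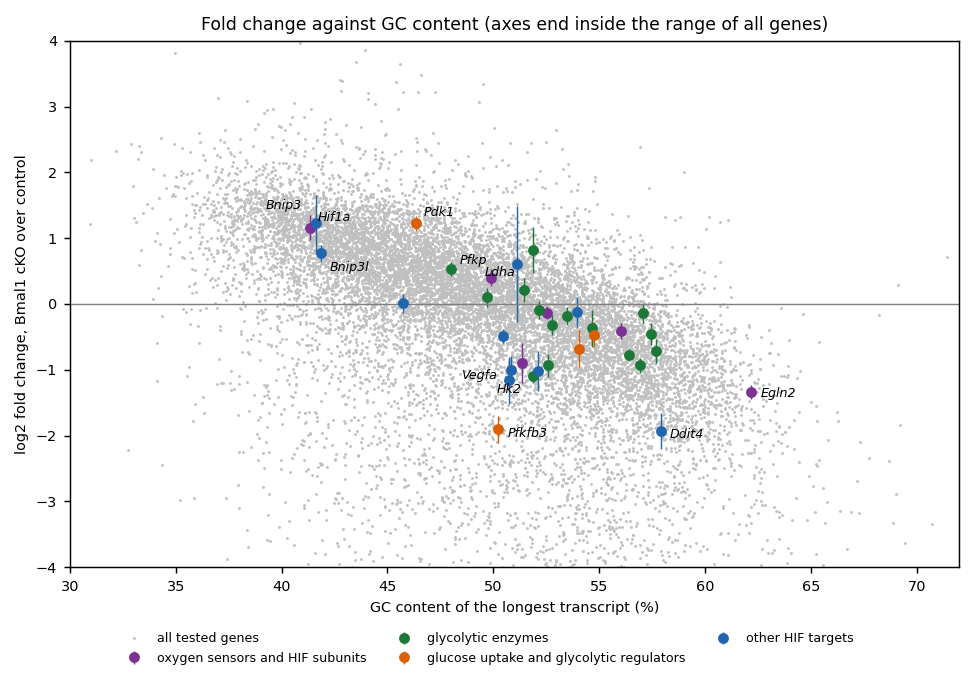
log2 fold change of *Bmal1* cKO over control against the GC content of the longest transcript (%), for all tested genes (grey) and the members by role (bars, standard error). *Egln2* at 62.2% and *Hif1a* at 41.3% GC lie within the slope of the grey cloud, whereas *Pfkfb3* at 50.2% lies well below it; the axes leave out the most extreme genes.

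The members also differed between the mice of each group, and largely in 1 direction. Control 2 exceeded control 1 in 26 of the 35 members (74.3%), against 48.9% of all tested genes, with a median log2 difference of 0.25. *Bmal1* cKO 1 exceeded *Bmal1* cKO 2 in 29 of 35 (82.9%), against 49.5% of all tested genes, with a median of 0.18. Both held for 22 of 35 (62.9%), where both held for 24.8% of all tested genes. The order of the mice was set separately in each group, and nothing pairs control 2 with *Bmal1* cKO 1. The members are not independent of each other, so these shares describe these 4 mice only. By role, both held for 12 of the 15 enzymes (80.0%), 3 of the 4 genes of glucose uptake and regulation (75.0%), 3 of the 6 oxygen sensors and HIF subunits (50%) and 4 of the 10 other HIF targets (40.0%). Among these targets, *Ankrd37* differed by 2.24 and 1.63 on the log2 scale. *Adm* went the other way in both groups, *Ddit4*, *Bnip3l* and *P4ha2* in the controls only, and *Vegfa* and *P4ha1* in *Bmal1* cKO only. Of the enzymes, *Hk2* went the other way in both groups. Summed per kilobase, the 15 enzymes were 31959 in control 2 and 26481 in control 1, and 24196 in *Bmal1* cKO 1 and 21061 in *Bmal1* cKO 2. The summed neutrophil markers were likewise higher in control 2 and in *Bmal1* cKO 1. The summed erythroid markers were higher in control 2, but at 19.5 and 17.6 in *Bmal1* cKO they were too low to order those mice. The summed leukocyte, endothelial and stromal markers went the opposite way in both groups, and the summed epithelial markers were higher in control 2 and in *Bmal1* cKO 2. The part of these cells in the differences between mice was not tested. With 2 mice per group this spread enters the standard errors above.

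**Figure D5:**
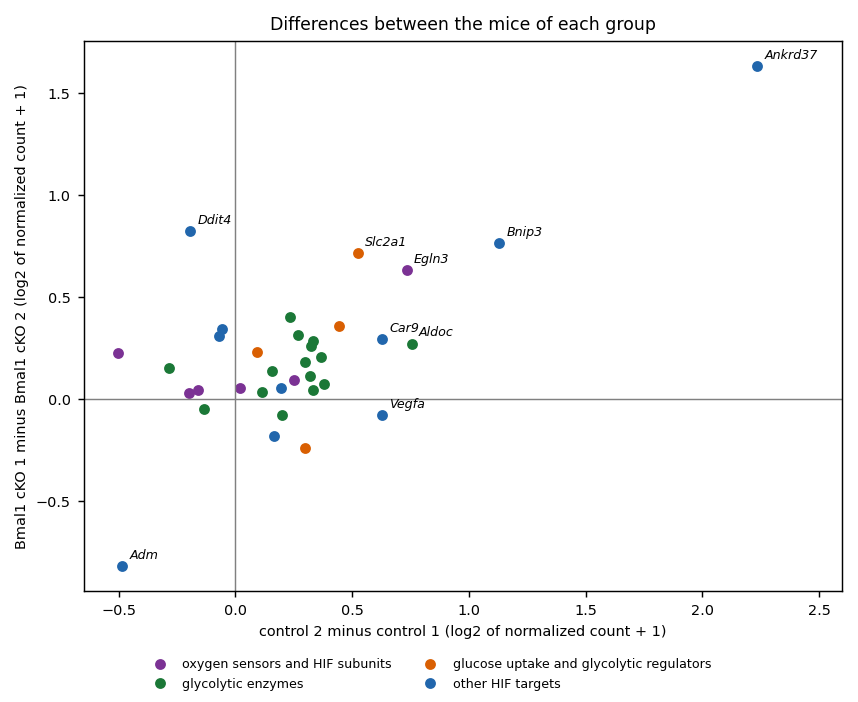
Difference between the 2 controls (x) and between the 2 *Bmal1* cKO mice (y) for each of the 35 members, in log2 of the normalized count plus 1, coloured by role. Of the members, 22 lie in the upper right, *Ankrd37* farthest out, and *Adm* and *Hk2* lie in the lower left.

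Beyond the 35 members, the genes around the pathway were read from lists by role. Of 13 genes for the entry of pyruvate into mitochondria and its turnover by pyruvate dehydrogenase, 10 (76.9%) were higher and 1 (7.69%) was lower, against 29.0% and 27.7% of all tested genes, with a median log2 fold change of 0.74. After the correction 6 (46.2%) were higher and 1 (7.69%) lower, against 17.5% and 17.8% (median 0.24), and the list has a median of 46.4% GC. It holds opposing regulators, since *Pdk3*, a kinase that inhibits pyruvate dehydrogenase, is among the genes called higher. *Pdhb*, a subunit of pyruvate dehydrogenase, had 1162 and 1123 normalized counts in the controls and 4019 and 3943 in *Bmal1* cKO, a log2 fold change of 1.80 (limma adjusted p = 0.000533) and 1.35 after the correction (adjusted p = 0.00267). *Dld*, the subunit shared with other dehydrogenases, had a log2 fold change of 1.35 (limma adjusted p = 0.000533), which was 0.35 after the correction (adjusted p = 0.0315). *Pdp2*, the phosphatase that reverses the action of *Pdk1*, was also higher, by 1.41 (limma adjusted p = 0.00451) and 1.07 (adjusted p = 0.0172). So *Pdk1* and its opponent *Pdp2* were higher together.

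Of 10 tested transporters of glucose and lactate, 3 (30%) were lower and 2 (20%) were higher as deposited, against 27.7% and 29.0% of all tested genes. After the correction 1 (10%) was lower and 3 (30%) were higher, against 17.8% and 17.5%. *Slc16a1*, the monocarboxylate carrier MCT1, through which the colonic epithelium takes up butyrate, had 2451 and 2650 normalized counts in the controls and 12038 and 11515 in *Bmal1* cKO, a 4.62-fold higher mean (log2 fold change 2.21, limma adjusted p = 0.000533, and 1.40 after the correction, adjusted p = 0.00283). *Slc16a3*, the lactate exporter MCT4 and a HIF target, had 329 and 1099 against 176 and 74.3 (log2 fold change -2.38, limma adjusted p = 0.0278, and -1.53 after the correction, adjusted p = 0.118). The sodium-coupled glucose transporter *Slc5a1* was higher by 1.15 (limma adjusted p = 0.00208) and 0.86 after the correction (adjusted p = 0.00873).

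Of 21 further genes of glycolysis and gluconeogenesis 5 (23.8%) were lower and 1 (4.76%) was higher, against 27.7% and 29.0% of all tested genes, and 2 (9.52%) and 1 (4.76%) after the correction, against 17.8% and 17.5%. Of 7 genes of the pentose phosphate branch 1 (14.3%) was lower and 2 (28.6%) were higher, and 1 (14.3%) and 3 (42.9%) after the correction, beside the same shares of all tested genes. *Pfkfb2* had 661 and 678 normalized counts against 1469 and 1346, a log2 fold change of 1.07 (limma adjusted p = 0.000838) and 0.48 after the correction (adjusted p = 0.0183), opposite to *Pfkfb3* of the same family. *Fbp2*, which runs the phosphofructokinase step backwards, was lower by -0.80 (limma adjusted p = 0.00536) and -0.55 after the correction (adjusted p = 0.0228). *G6pc3*, a glucose 6-phosphatase, had a log2 fold change of -0.80 (limma adjusted p = 0.00655) that was 0.22 after the correction (adjusted p = 0.256). *Pgls*, the lactonase of the pentose phosphate branch, had 1044 and 929 against 242 and 201 (log2 fold change -2.15, limma adjusted p = 0.000533, and -1.21 after the correction, adjusted p = 0.00398). *Rpe* and *Rpia*, which interconvert its pentose phosphates, were higher, with log2 fold changes of 1.51 and 0.69 (limma adjusted p = 0.000533 and 0.00939), and 0.42 and 0.22 after the correction (adjusted p = 0.0273 and 0.262).

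Of 45 tested further HIF targets 18 (40.0%) were lower and 11 (24.4%) were higher, against 27.7% and 29.0% of all tested genes. After the correction 15 (33.3%) were lower and 3 (6.67%) higher, against 17.8% and 17.5%, with medians of -0.71 and -0.36. *Hmox1*, the haem oxygenase, had 349 and 566 normalized counts in the controls and 34.97 and 41.9 in *Bmal1* cKO (log2 fold change -3.50, limma adjusted p = 0.000690, and -3.03 after the correction, adjusted p = 0.00343). *Entpd1*, the ATP-splitting ectoenzyme CD39 of leukocytes and endothelium, had 429 and 516 against 36.0 and 28.4 (log2 fold change -3.84, limma adjusted p = 0.000533, and -4.49 after the correction, adjusted p = 0.00256). *Mif* had 1696 and 1739 against 202 and 164 (log2 fold change -3.23, limma adjusted p = 0.000533, and -1.29 after the correction, adjusted p = 0.00484). This list holds *Kdr*, *Flt1* and *Tek*, which are endothelial markers too. Of 15 tested further regulators of HIF 4 (26.7%) were lower and 7 (46.7%) were higher (median 0.16), against 27.7% and 29.0% of all tested genes. After the correction 3 (20.0%) were lower and 4 (26.7%) higher, against 17.8% and 17.5% (median 0.12). Calls also turned there: *Rbx1* (0.48 to -0.37) and *Eloc* (0.55 to -0.61) went from higher to lower and *Elob* (-0.55 to 0.97) from lower to higher, genes named after their values were seen, all subunits of the VHL ligase. *Cul2*, the scaffold of the VHL ligase, had 666 and 651 against 1511 and 1521 (log2 fold change 1.203, limma adjusted p = 0.000566), which was 0.19 after the correction (adjusted p = 0.141). *Siah1a*, a ubiquitin ligase that acts on the prolyl hydroxylases, was higher by 0.78 (limma adjusted p = 0.00702) and 0.13 after the correction (adjusted p = 0.534). *Os9* was lower, with 1234 and 1291 against 515 and 558 (log2 fold change -1.23, limma adjusted p = 0.000666, and -0.39 after the correction, adjusted p = 0.0407).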

How the data were processed

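Colonic epithelial cells of 2 control and 2 *Bmal1* cKO mice were profiled by RNA-seq. Per the labels and methods, the authors aligned reads to GRCm38 (mm10) with STAR and computed size factors with DESeq2. The counter, the annotation and the use of strand are not given in the sources used here. What the authors deposited per library is a signal: the count of each gene over the library's size factor. Columns of the authors' own comparison (mean, log2 fold change, standard error, statistic, p-value and adjusted p-value) were not used.

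Whole reads were recovered for 100% of the values (tolerance 0.1 read). The main test was limma 3.58.1 with a mean-variance trend on log2(normalized count + 1), two-sided, over the 13983 genes whose mean reached 10, with p-values adjusted by Benjamini-Hochberg and called under 0.05. Fold changes on this scale understate those of low genes. On the recovered reads, edgeR 4.0.16 (quasi-likelihood) called 3812 genes lower and 3861 higher, and DESeq2 1.42.0 called 3803 and 3719. Other alternatives were pseudocounts of 0.5 and 5, no filter or a mean of 50, TMM or library total scaling, a replicate block, a loess adjustment (span 0.3) of every library on the GC content of the longest transcript and the exon length in GENCODE M21, and leaving out each mouse. Library totals leave out genes that are not listed, and the p-values measure the spread between these mice only. Permuting 2 against 2 mice exactly cannot pass the threshold. The steps were run on simulated counts with the same noise in all libraries and a linear GC trend. Here the controls differed more from each other than the *Bmal1* cKO mice did (chi-square per gene 42.1 and 11.1). The simulation therefore cannot show how the fits behave at the noise of these mice.

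Members, lists and tests were chosen with earlier results of these data known. The text names all 35 members, the targeted gene and the first gene of each marker list. From each pathway list it names up to 3 called genes with the largest log2 fold change. Their mean had to reach 100 and their groups not to overlap. Named outside this rule were *Hk3*, *Pdk3*, *Kdr*, *Flt1*, *Tek*, *Rbx1*, *Eloc* and *Elob*, and further marker genes, such as *Krt18*, *Cdx2*, *Ly6g* and *Ngp*. The isozyme shares of 1 enzyme family are not reported here.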

Additional observations from a re-analysis of the deposited data

How the results depend on the processing

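Pseudocounts, filters and TMM scaling left the direction of all 35 members and moved at most 1 call each. With library total scaling, which set the median of all tested genes to -0.26, 20 members were lower and 3 higher (median -0.59; 34.9% and 22.1% of all tested genes), 8 enzymes were lower and 0 higher (limma, median -0.55), the median of the other HIF targets was -0.53, and *Pgk1* (-0.13), *Ldha* (-0.013) and *P4ha1* (-0.21) turned. *P4ha1* was also -0.0047 with edgeR, which called 3 of the other HIF targets lower, and DESeq2 called 2 higher. Correction for GC content and length gave 2484 lower and 2444 higher genes, 6 and 2 members (median 0.14), 2 enzymes lower (median 0.23) and 3 and 0 other HIF targets (median -0.50). The correction turned the direction of *Epas1* (0.15), *Egln1* (0.34), *Egln2* (0.28), *Hk1* (0.11), *Gpi1* (0.14), *Pfkl* (0.80), *Pfkm* (0.23), *Tpi1* (0.27), *Pgam1* (0.070), *Eno1* (0.51), *Pkm* (0.27), *Pfkfb4* (0.13), *Car9* (0.39), *G6pc3* (0.22), *Bnip3l* (-0.12) and *P4ha1* (-0.51). With the correction and the replicate block together these fold changes and medians were the same, with 2239 and 2120 genes, 5 and 2 members, 1 enzyme lower and 3 and 0 other HIF targets, where *Gapdh* (limma adjusted p = 0.0718) and *P4ha1* (0.0502) did not pass and *Ddit4* (0.0271) did. The replicate block alone called 3789 and 3899 genes and 12 and 4 members; mice of 1 number did not deviate together (correlation -0.09), so they share only a number. Leaving out 1 mouse gave 2205 to 2852 lower and 2654 to 3154 higher genes, 6 to 10 members lower and 2 to 5 higher, 3 to 4 enzymes lower and 0 to 1 higher (median -0.42 to -0.14), and 1 to 3 other HIF targets lower and 1 to 2 higher (median -0.55 to -0.15). In those fits the log2 fold change ranged across 0 for *Gpi1* (-0.24 to 0.056), *Pfkl* (-0.33 to 0.053), *Pgk1* (-0.067 to 0.27), *Car9* (-0.43 to 0.20), *Ankrd37* (-0.51 to 1.73) and *P4ha1* (-0.079 to 0.10), and a lone mouse was taken to vary like the other group. The causes of these changes were not tested beyond what each alternative changes by construction, and the effect of depth on the calls was not tested.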
